A study of Mus musculus with 2 samples.

Results

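The genes described here are the type I interferon-stimulated genes, a list of 37 symbols taken from knowledge of the pathway and looked up by exact symbol in the gene tables of both libraries. Of the 37 symbols, 36 were found among the 32285 genes of the count tables, and Mx2 was not analysed here. The UMIs of the 36 genes (unique molecular identifiers, each counting 1 captured RNA molecule) were summed per cell, and the sums and single genes were compared between cell classes and between both libraries.

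The study used mouse gingiva from 2 groups, normoglycemic mice and mice made diabetic with streptozotocin, a toxin of insulin-producing cells that models type 1 diabetes. All mice in both groups were CD11CCre-/-;FoxoLL on a mixed C57B6 - FVB background. Their Foxo1 gene had a floxed exon, but without Cre it was not deleted, and per the labels the Foxo1 protein was normal. Inflammation was kept up with bacteria for 2 weeks and a waiting period of 2 weeks followed. Gingival cells of 4 mice per group were pooled, live CD45+ cells without CD31 or Ter-119 were sorted with a 20% enrichment of CD11c+ cells, and 10000 cells were loaded per lane for 3' single-cell RNA sequencing. The CD45 marker is carried by leukocytes, so the classes below are mostly immune cells. Each group is 1 library with no replicates. No test between conditions is therefore possible, and every interval given covers counting error within a library and not the differences between mice.

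Type I interferons bind the receptor IFNAR1/IFNAR2, and the kinases JAK1 and TYK2 then pass the signal on to a transcription factor complex that holds IRF9. This complex binds the interferon-stimulated response element (ISRE) in front of its target genes, many of which code for antiviral proteins. In neutrophils and monocytes the same genes are often used as a marker of interferon exposure, and they can be switched on in a few cells or across a whole population.

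The ISRE was searched as GAAANNGAAA on both strands in the 250 bases before the transcript start in RefSeq promoters (build GRCm38.p6). RefSeq promoters were found for 28 of the 36 genes, and 13 of these 28 genes (46.4%) held the letters in at least 1 promoter, against 936 of all 27025 genes (3.46%). The lines below show the upstream stretch of the 4 genes with the most UMIs that hold the ISRE letters, and of Slfn4, the gene with the most UMIs that does not. They are written 5′ to 3′ on the gene's strand, with the ISRE letters in capitals (on the opposite strand in Trim30a).
Isg15, chr4:156200819-156200918, - strand: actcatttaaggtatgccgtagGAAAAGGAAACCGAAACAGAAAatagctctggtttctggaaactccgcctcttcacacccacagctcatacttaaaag
Trim30a, chr7:104465194-104465293, - strand: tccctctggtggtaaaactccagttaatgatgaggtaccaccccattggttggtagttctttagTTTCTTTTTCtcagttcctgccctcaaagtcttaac
Bst2, chr8:71537473-71537612, - strand: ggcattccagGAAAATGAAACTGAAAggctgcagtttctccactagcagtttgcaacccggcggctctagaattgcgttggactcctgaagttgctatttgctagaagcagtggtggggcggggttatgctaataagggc
Slfn5, chr11:82951937-82952101, + strand: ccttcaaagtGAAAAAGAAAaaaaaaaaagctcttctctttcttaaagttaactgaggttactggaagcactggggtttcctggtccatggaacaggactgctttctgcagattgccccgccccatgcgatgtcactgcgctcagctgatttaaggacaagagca
Slfn4, chr11:83175086-83175185, + strand: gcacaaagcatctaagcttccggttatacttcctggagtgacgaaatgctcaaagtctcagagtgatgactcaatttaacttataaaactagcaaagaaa
In Isg15, 3 overlapping matches ended 56 bases before the start, and Bst2 held 2 overlapping matches that ended 114 bases before it. Slfn4 lacks these letters in the searched window, which says nothing on whether it holds other forms of the element.

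The normoglycemic matrix held 11280 barcodes and 89339733 UMIs and the diabetic matrix 10496 barcodes and 78220582 UMIs, of which 10948 and 10260 cells were analysed. Median depth was 5302.5 and 4631.5 UMIs per cell. The libraries shared 32 barcodes. Cells were clustered without the interferon genes and each cluster was named by marker genes, so that a class name such as neutrophil means neutrophil-like. The diabetic library held more cells that the CD45 sort should have removed, with 281 fibroblast-like cells against 24. Over all cells the 36 genes gave 195018 UMIs (2193 CPM, or UMIs per 1e+06 UMIs) in the normoglycemic and 157710 UMIs (2025 CPM) in the diabetic library. Ifi27l2a supplied 23.0% of these UMIs and Isg15 11.3%. The direction was not the same in every class.

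In neutrophils the summed level of the 36 genes was higher in the diabetic library, whereas it was lower in all 6 other classes with at least 100 cells per library. Neutrophils are short-lived phagocytes and here formed the largest class, with 5278 normoglycemic and 4359 diabetic cells. Their summed level went from 1943 to 3278 CPM between the normoglycemic and the diabetic cells, a ratio of 1.69 (95% interval 1.67 to 1.71). In monocytes (1373 and 1332 cells) it was 3265 and 2140 CPM, a ratio of 0.656 (0.646 to 0.665). Macrophages had 2253 and 1773 CPM, a ratio of 0.787 (0.774 to 0.800). The order of these classes thus turned over between libraries: monocytes stood above neutrophils in the normoglycemic and below them in the diabetic library, with intervals far apart. Conventional dendritic cells, which present antigen to T cells, had 1956 and 1847 CPM, a ratio of 0.945 (0.928 to 0.961). That difference turned its direction when cells were clustered in other ways, as the closing section gives.

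The T or NK class had 2494 CPM in 709 normoglycemic cells and 1548 CPM in 316 diabetic cells, a ratio of 0.621 (0.595 to 0.647). Its largest cluster, 19, had a ratio of 0.617 (0.587 to 0.649). Cluster 15, led by Xcl1 and Gzmc, had 0.905 (0.813 to 1.01) and cluster 21, led by Lef1 and Tcf7, 0.967 (0.852 to 1.10). Both of these intervals include 1. The gamma-delta or type 17 T class, a source of interleukin 17, had 869 and 568 CPM, and B cells 1013 and 746 CPM, the lowest levels of the 7 classes in both libraries. The B cell difference had no stable direction: its log2 ratio of -0.44 was -0.083 under TMM scaling, 0.028 with cells gated one by one and 0.011 as the mean of each cell's share. These classes also held the fewest high cells, as described below. Mature dendritic cells (90 and 101 cells) fell under the minimum of 100 cells and are given as levels only, of 4132 and 1745 CPM. Plasmacytoid dendritic cells, known as strong producers of type I interferon, were at 4614 CPM in 6 cells and 6766 CPM in 13 cells, above every other class in either library.

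**Figure D1:**
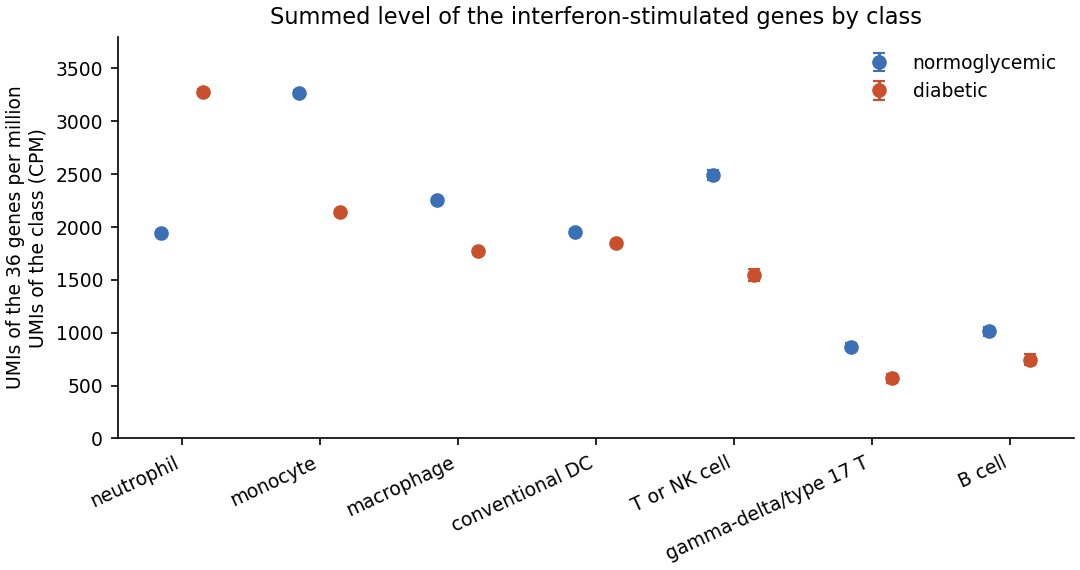
Summed level of the 36 genes (vertical axis, UMIs per 1e+06 UMIs of the class) in the 7 classes with at least 100 cells per library, with blue points for the normoglycemic and orange points for the diabetic library and bars for 95% Poisson intervals. Neutrophils are at 1943 and 3278 CPM, while the other 6 classes are lower in the diabetic library.

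To tell a few strong cells from a shift of all cells, each cell was thinned at random to 1000 UMIs, and a cell was called high with at least 10 UMIs of the 36 genes among them. Of the normoglycemic neutrophils 146 of 5200 were high, or 2.81% (exact interval 2.38 to 3.29%), and of the diabetic neutrophils 353 of 4308, or 8.19% (7.39 to 9.05%). The difference was 5.39 percentage points (Newcombe interval 4.47 to 6.34), and without thinning the shares, counted as cells with at least 1% member UMIs, were 2.52% and 7.52%. High neutrophils carried UMIs of a median of 7 different members in the normoglycemic and 6 in the diabetic library, against 1 in the other neutrophils. Because the cut asks for at least 10 member UMIs, this contrast follows in part from the cut and is a description. The high neutrophils held 25.9% and 40.4% of all thinned member UMIs of the class. Among the high neutrophils 0.685% and 0% were within the highest doublet scores, against 4.61% and 4.32% of the others. The cut does not separate discrete groups: 106 normoglycemic and 247 diabetic neutrophils had 8 to 11 member UMIs.

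The rest of the neutrophils differed as well. Their median thinned sum was 1 in the normoglycemic and 2 in the diabetic library. Over all neutrophils, high cells included, the 95th percentile of the sum was 7 and 13. The mean thinned sum was 1.97 and 3.45, and high cells accounted for 59.7% of that difference and the other cells for 40.3%. Without the high cells the ratio of summed levels was 1.47 (1.45 to 1.49) in place of 1.69. Because the cut uses the same UMIs, the 36 genes were also divided into alternate genes of the alphabetical list. Cells with at least 5 thinned UMIs of the first group were called high, and the second group was read in them, and the reverse. Neutrophils not high on the first group had 666 and 1018 CPM of the second, a ratio of 1.53, and those not high on the second group had a ratio of 1.55 on the first. Among neutrophils high on the first group the second group stood at 4496 CPM in 250 normoglycemic and 4427 CPM in 513 diabetic cells, a ratio of 0.985 (0.950 to 1.02). In the reverse reading the ratio was 0.886 (0.854 to 0.919). Of the 40 other interferon-stimulated genes described below, the same high cells had ratios of 1.08 (1.05 to 1.11) and 1.05 (1.02 to 1.09), and the cells that were not high had ratios of 1.39 and 1.38. Diabetic neutrophils thus held more high cells, together with a higher level in the remaining cells, while the level per high cell differed less and in no single direction.

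Monocytes had the opposite pattern. High cells were 88 of 1357 (6.48%, 5.23 to 7.93%) in the normoglycemic and 27 of 1314 (2.05%, 1.36 to 2.98%) in the diabetic library, a difference of -4.43 points (-6.00 to -2.93). The mean thinned sum was 3.38 and 2.06, with 61.7% of the difference in high cells and 38.3% in the others. The reading on alternate genes was uneven in monocytes that were not high. Monocytes not high on the first group had a ratio of 0.987 (0.966 to 1.01) on the second, whereas those not high on the second group had a ratio of 0.587 on the first, which holds Ifi202b. The other interferon-stimulated genes had ratios of 0.905 and 0.894 in these cells. In high monocytes the members read had ratios of 0.829 and 0.474, and the other interferon-stimulated genes of 0.716 and 0.734, so these were lower on all 4 readings.

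Macrophages differed without their high cells. Of 1297 normoglycemic macrophages 27 were high (2.08%) and of 1194 diabetic ones 18 (1.51%), a difference of -0.574 points whose interval, -1.66 to 0.504, includes 0. Other cells accounted for 99.4% of the difference in the mean, and the ratio without high cells was 0.773. In the T or NK class the split was the reverse, with 50 of 704 high cells (7.10%) in the normoglycemic and 8 of 315 (2.54%) in the diabetic library. High cells made up 88.5% of the difference in the mean of that class. Of the 50 normoglycemic high cells 49 lay in cluster 19, led by Ctla4, Tnfrsf4 and Ikzf2, where 9.61% and 3.72% of cells were high. Both Foxp3 and Cd8b1 are further down among the leading genes of cluster 19, so it was not read as a single T cell type. Conventional dendritic cells had 22 of 916 (2.40%) and 10 of 809 high cells (1.24%), a difference of -1.17 points with an interval (-2.50 to 0.140) that includes 0. Gamma-delta or type 17 T cells had 4 of 341 and 0 of 187 high cells, which allows a share of up to 1.60% by the limit of 3 counts (1.95% by the exact interval), and B cells had 1 of 314 and 1 of 165.

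**Figure D2:**
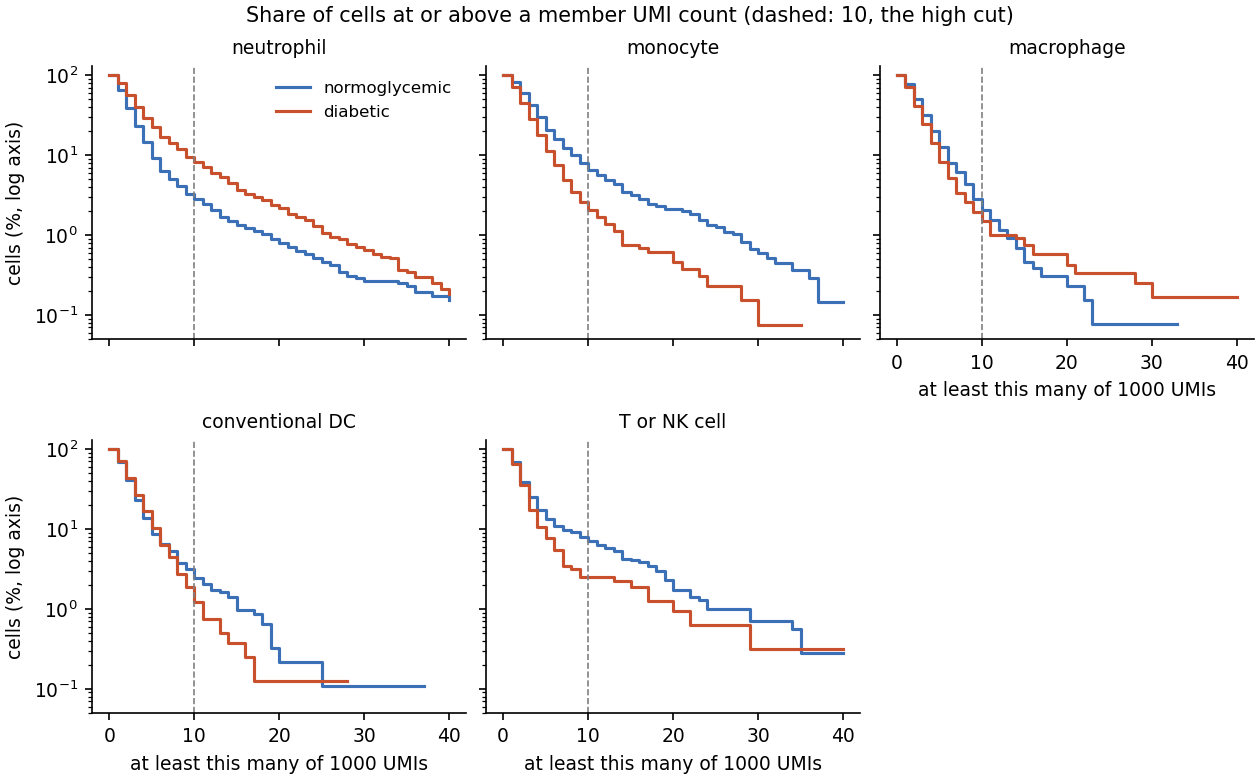
Share of cells (vertical log axis, percent) with at least the number of member UMIs on the horizontal axis after thinning to 1000 UMIs, for 5 classes and both libraries, with a dashed line at 10. The diabetic neutrophil curve lies above the normoglycemic one on both sides of the line (8.19% against 2.81% at 10), and the monocyte curves lie in the opposite order (2.05% against 6.48%).

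Gene by gene, a member was counted as measured in a class at an average of at least 10 CPM over both libraries, and as called past a 1.5-fold ratio. In neutrophils 21 of the 36 members were measured, 13 were called higher and 0 lower in the diabetic library, while 18.4% of the 3601 genes measured in neutrophils were called higher and 15.4% lower. The median log2 ratio of the members was 0.83, against 0.10 over all genes. This median includes the 5 genes named next, is itself the value of Herc6, and was not computed without them. Of the 13, 5 (Herc6, Ifih1, Ifit3, Oas2 and Zbp1) were under 10 CPM in the normoglycemic library and passed the minimum only through the library in which they were higher, so their calls carry no weight, and 8 reached 10 CPM in both libraries. Within the neutrophil clusters described below, fewer members were called: 3 higher and 2 lower of 21 measured in cluster 3, 2 and 1 of 16 in cluster 4, 3 and 2 of 26 in cluster 5, 7 and 0 of 15 in cluster 6 and 5 and 0 of 21 in cluster 14. The share over all genes was not computed within clusters, so the cluster counts have no rate to be set against. Over the whole class many genes differed between the libraries in both directions.

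Among the effector genes, Ifi27l2a (ENSMUSG00000079017, chr12:103442167-103443680), a small interferon-induced membrane protein, had 77.9 and 362 CPM in neutrophils, a ratio of 4.64 (4.41 to 4.89). Rtp4, a chaperone-like transmembrane protein with antiviral activity, had 32.3 and 79.4 CPM, a ratio of 2.46. Isg20, an exonuclease acting on RNA, and Trim30a, a regulator of inflammatory signalling, had ratios of 1.64 and 1.81. All 4 were called higher. Rsad2, which codes for the antiviral enzyme viperin, had 96.6 and 103 CPM, a ratio of 1.06 (0.997 to 1.13) that falls under 1 when scaled by TMM or DESeq2 size factors (a shift of -0.12 in log2 for neutrophils under both). Parp14, an ADP-ribosyl transferase, had a ratio of 1.33 and was not called.

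In the ISG15 pathway, Isg15 (ENSMUSG00000035692, chr4:156199424-156200818), a ubiquitin-like modifier of other proteins, had 349 and 843 CPM in neutrophils, a ratio of 2.41 (2.35 to 2.48). Herc6, the ligase that attaches ISG15 in mice, had a ratio of 1.78 and passed the minimum only through the diabetic library. Of the transcription factors, Irf7, which drives interferon genes, had 20.8 and 47.0 CPM, a ratio of 2.26, and Irf9, a DNA-binding part of the interferon-activated complex, had 21.5 and 30.3 CPM, a ratio of 1.41 that was not called. Of the sensors of viral nucleic acid, Zbp1 had 6.63 and 13.5 CPM and Ifih1 (MDA5) 9.95 and 16.5 CPM, both among the genes that passed the minimum through the diabetic library.

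The families encoded in clusters were not uniform in neutrophils. Oas3 (22.3 and 53.2 CPM, ratio 2.39) and Oas2 (6.72 and 13.4 CPM, ratio 1.99) are enzymes that activate RNase L. Oas3 was called higher, while the Oas2 call carries no weight because it passed the minimum only through the diabetic library. By contrast, Oasl1 had a ratio of 1.39 and Oasl2 of 0.886 (0.835 to 0.939). Oas2 and Oas3 lie next to each other on chromosome 5, and Oasl1 and Oasl2 at another place on it. Of the Schlafen genes on chromosome 11, which restrain cell growth or viral translation, Slfn5 had a ratio of 1.85, Slfn1 of 1.31 and Slfn4 of 1.14 (482 and 552 CPM). Of the IFIT genes on chromosome 19, whose proteins bind foreign RNA, Ifit3 had 6.88 and 16.4 CPM (ratio 2.39). Ifit3 also passed the minimum only through the diabetic library. Ifit1 had 17.6 and 25.3 CPM (ratio 1.44, not called). Ifit3 has a near-identical neighbour, Ifit3b, and Oas1a has Oas1g, so the division of reads within these pairs is uncertain.

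The members differed in how far their UMIs lay in high cells. In neutrophils the high cells held 75.3% (normoglycemic) and 77.2% (diabetic) of the Ifit3 UMIs and 69.3% and 84.4% of the Ifit1 UMIs, but 7.25% and 15.9% of the Slfn1 UMIs. Without the high cells 11 of the 21 measured members were past 1.5-fold higher, with no share over all genes computed in the remaining cells. Herc6, Ifit3, Oas2 and Zbp1 are among the 11, passed the minimum only through the diabetic library and carry no weight here either. Ifi27l2a then had a ratio of 3.46, Isg15 of 2.09 and Oas3 of 2.35, although the cut that removed the cells uses these same genes, so that the ratios without high cells, in every class, are a description. For Slfn5 the ratio was 1.25 in place of 1.85, and for Ifit1 0.769 in place of 1.44. That Ifit1 ratio rests on 5.55 and 4.26 CPM, under the 10 CPM minimum, and its interval (0.560 to 1.05) includes 1. Within high cells Rsad2 stood at 2426 and 990 CPM, while Ifi27l2a stood at 676 and 2171 CPM. Since these cells were chosen by the sum of the members, these levels are a description.

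**Figure D3:**
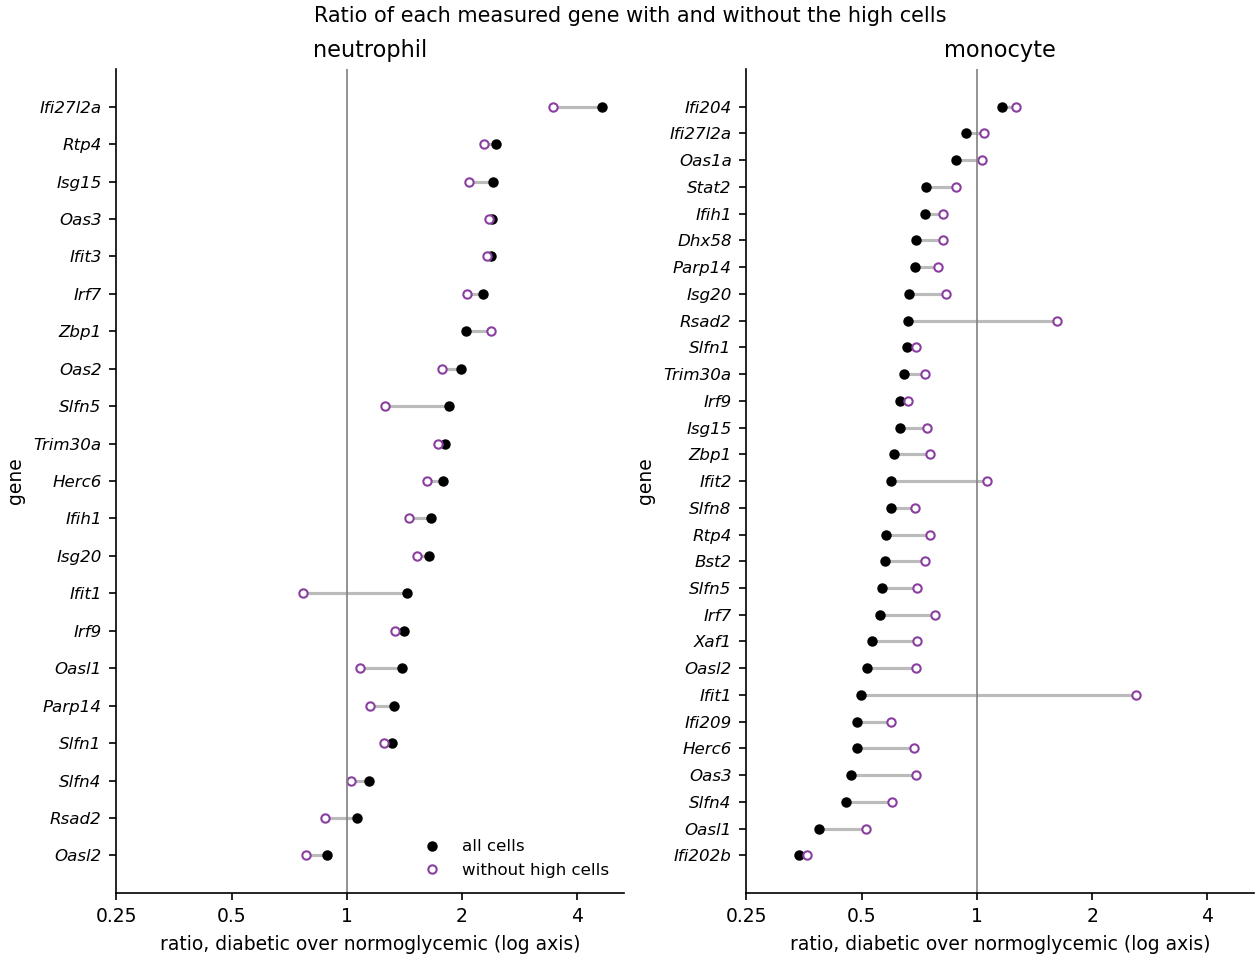
Ratio of diabetic over normoglycemic level (horizontal log axis) for each measured member in neutrophils (left) and monocytes (right), from all cells (filled) and without the high cells (open). Without high cells 18 of 21 neutrophil genes have a ratio above 1, including genes that passed the level minimum only through the diabetic library. In monocytes Rsad2 and Ifit1 move from 0.660 and 0.498 to 1.62 and 2.61. Ifit1 is then at 2.00 and 5.24 CPM, under the minimum of 10 CPM in both libraries.

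In monocytes 29 members were measured, 22 were called lower and 0 higher, against 6.3% and 5.42% of 6254 genes. The median log2 ratio was -0.74 (0.00 over all genes). This median includes the 3 genes named next, is itself the value of Ifit2, and was not computed without them. Of the 22, 3 (Herc6, Ifit1 and Ifit2) were under 10 CPM in the diabetic library and passed the minimum only through the normoglycemic one. The calls of these 3 carry no weight, and 19 reached 10 CPM in both libraries. Ifi202b (ENSMUSG00000026535, chr1:173962568-173982744), a member of the family of DNA-binding p200 proteins, had 495 and 170 CPM, a ratio of 0.343 (0.327 to 0.359). Its neighbour of the same family Ifi209 had 163 and 79.2 CPM, a ratio of 0.487. Ifi204, also of that cluster on chromosome 1, had 141 and 164 CPM, a ratio of 1.16 (1.10 to 1.24), and was chosen for mention after its value was seen. Neighbouring genes of 1 family thus differed in direction. Oasl1 had 32.4 and 12.6 CPM (0.387), Oas3 24.0 and 11.3 CPM (0.470) and Oasl2 42.6 and 22.0 CPM (0.516). All 4 Schlafen members were called lower, with Slfn4 at 81.9 and 37.2 CPM, a ratio of 0.454. Of the 13 members called higher in neutrophils, 11 were measured in monocytes, and 9 of these were called lower there. The 11 include Herc6, Zbp1 and Ifih1, whose neutrophil calls carry no weight, and Herc6 and Zbp1 are among the 9. The share of all genes with both calls was not computed, so the overlap has no rate to be set against.

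Ifi27l2a, chosen after its value was seen, had 710 and 665 CPM in monocytes, a ratio of 0.937 (0.911 to 0.963), beside the ratio of 4.64 in neutrophils. Without the high cells, where no share over all genes was computed, 5 of 29 monocyte members were past 1.5-fold lower and 2 higher. The latter were Rsad2 (0.660 with all cells, 1.62 without high cells) and Ifit1 (0.498 and 2.61), both named after their values were seen. Without high cells Ifit1 was at 2.00 and 5.24 CPM, under the 10 CPM minimum in both libraries, with an interval of 1.67 to 4.19. High cells held 76.6% of the Rsad2 UMIs and 88.5% of the Ifit1 UMIs in normoglycemic monocytes, and 39.9% and 37.4% in diabetic ones. Ifi202b instead had a ratio of 0.361 without the high cells, close to that of all cells, and 12.3% and 3.70% of its UMIs were in high cells.

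Ifi202b had a ratio under 1 in all 7 classes, from 0.217 in the T or NK class to 0.822 in conventional dendritic cells, and in B cells the interval (0.344 to 1.42) includes 1. In neutrophils it was under the minimum level, at 6.51 and 2.50 CPM. Expression of this gene is known to differ between inbred mouse strains, and the mice had a mixed background. Whether the pools differed in the alleles they carried was not tested. Without Ifi202b, an alternative added after the values were seen, the log2 ratio of the monocyte sum was -0.49 in place of -0.61.

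In macrophages 28 members were measured, with 0 called higher and 4 lower (2.12% and 3.58% of 7270 genes). Of the 4, Oas2 was under 10 CPM in the diabetic library, so its call carries no weight, and 3 reached 10 CPM in both. Of the 28, 26 had a ratio under 1. The median log2 ratio of -0.38 (-0.01 over all genes), with Oas2 included, came from small differences in many members. Rtp4 had 33.7 and 17.3 CPM (0.513) and Xaf1, a promoter of cell death, 38.3 and 21.4 CPM (0.560). Isg15 had 76.4 and 81.1 CPM in macrophages, a ratio of 1.06 (0.980 to 1.15), and Ifit1 a ratio of 1.21, named after their values were seen as the 2 members above 1. In conventional dendritic cells 27 were measured, 1 called higher and 4 lower (2.65% and 4.48% of 6726 genes). Of the 4, Usp18 passed the minimum only through the normoglycemic library, and 3 reached 10 CPM in both. Ifit1 had 12.4 and 23.4 CPM there (1.88), and Irf7 47.0 and 22.7 CPM (0.483).

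In the T or NK class 26 members were measured, 0 called higher and 9 lower (5.16% and 12.5% of 7128 genes). Of the 9, Ifi202b and Oasl2 were under 10 CPM in the diabetic library, so their calls carry no weight, and 7 reached 10 CPM in both. Ifi27l2a had 1143 and 531 CPM in these cells (ratio 0.465), Ifit1 58.7 and 16.1 CPM (0.275) and Rsad2 48.9 and 22.3 CPM (0.455). The ratio of Rsad2 without high cells was 1.08 (0.690 to 1.65), while that of Ifi27l2a was 0.492. In gamma-delta or type 17 T cells 0 of 19 were called higher and 8 lower (5.59% and 13% of 6927 genes). Of these 8, Ifi202b and Oasl2 again passed only through the normoglycemic library, and 6 reached 10 CPM in both. Ifi27l2a was at 117 and 40.8 CPM in this class. In B cells 3 of 19 were called higher and 6 lower (4.88% and 31.3% of 6642 genes), a share of lower calls like that over all genes. TMM scaling shifted the log2 ratios of B cells by 0.36, of the T or NK class by 0.13 and of gamma-delta or type 17 T cells by 0.11. Slfn4, largely a myeloid gene, was at 35.3 and 39.0 CPM in the T or NK class (named after its value was seen) and at 50.2 and 16.3 CPM in B cells. The part of free RNA in these levels was not tested.

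**Figure D4:**
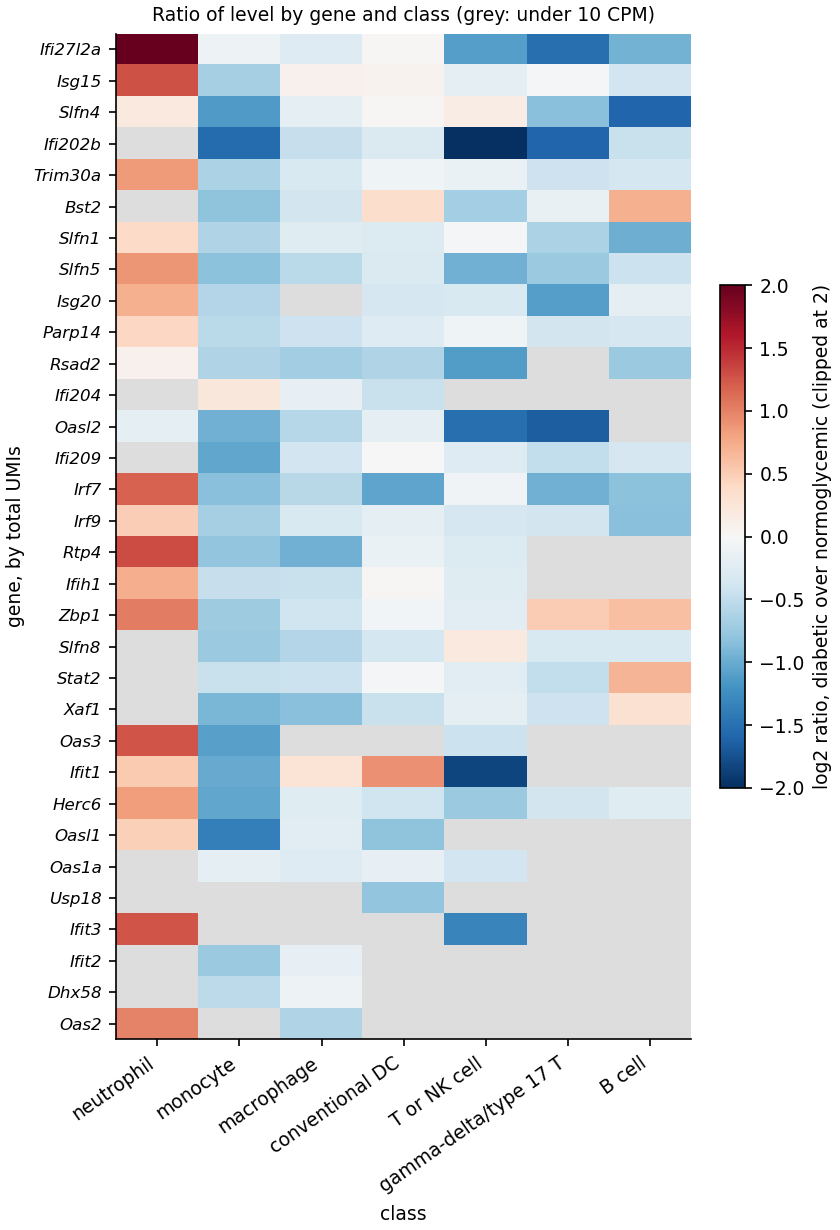
Log2 ratio of diabetic over normoglycemic level (colour, clipped at 2) for each member (vertical, by total UMIs) measured in at least 1 of 7 classes (columns), with grey for members under 10 CPM in a class. The neutrophil column is mostly red and the monocyte column mostly blue, with Ifi27l2a at a ratio of 4.64 in the first and 0.937 in the second.

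The neutrophil difference went along with a different mix of neutrophil clusters. Normoglycemic neutrophils lay mostly in clusters 4 (36.5%, led by Spp1 and Il23a) and 6 (24.9%, led by Plet1 and Lcn2), which held 4.98% and 1.81% of diabetic neutrophils. Diabetic neutrophils lay mostly in clusters 5 (36.4%, led by Lrg1 and Cxcr2), 14 (28.9%, led by Stfa2 and Cstdc5) and 3 (27.9%, led by Csf1). In the normoglycemic library the members' summed level was 1676 CPM in cluster 4 and 1271 CPM in cluster 6, but 3561 CPM in cluster 5, 2352 CPM in cluster 14 and 2648 CPM in cluster 3. The clusters that were more common in the diabetic library thus had higher member levels in the normoglycemic library too.

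Within clusters the ratios were smaller than in the class, at 1.13 (1.10 to 1.16) in cluster 3, 1.18 in cluster 4, 1.21 in cluster 5, 1.27 in cluster 6 and 1.21 in cluster 14. When the normoglycemic clusters were weighted to the diabetic mix, an alternative added after seeing the data, the mean thinned sum was 2.85 against 3.45, a ratio of 1.21 in place of 1.76. The share of high cells was then 4.97% against 8.19%. The number of diabetic high cells was largest in cluster 5, with 191 of 1560 cells (12.2%, 10.7 to 14.0%) against 31 of 440 (7.05%, 4.84 to 9.85%) in the normoglycemic library. In cluster 14 the shares were 6.05% and 2.74%, and in cluster 3 they were 6.50% and 5.43% with overlapping intervals. A further 508 diabetic cells and 1 normoglycemic cell with neutrophil and salivary genes (cluster 13, led by Bpifa2) were kept out of the class. Of these diabetic cells 6.98% were high. The summed level of 7 secretory epithelial markers in neutrophils themselves was 7.17 and 371 CPM, and its part in the member levels was not tested.

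**Figure D5:**
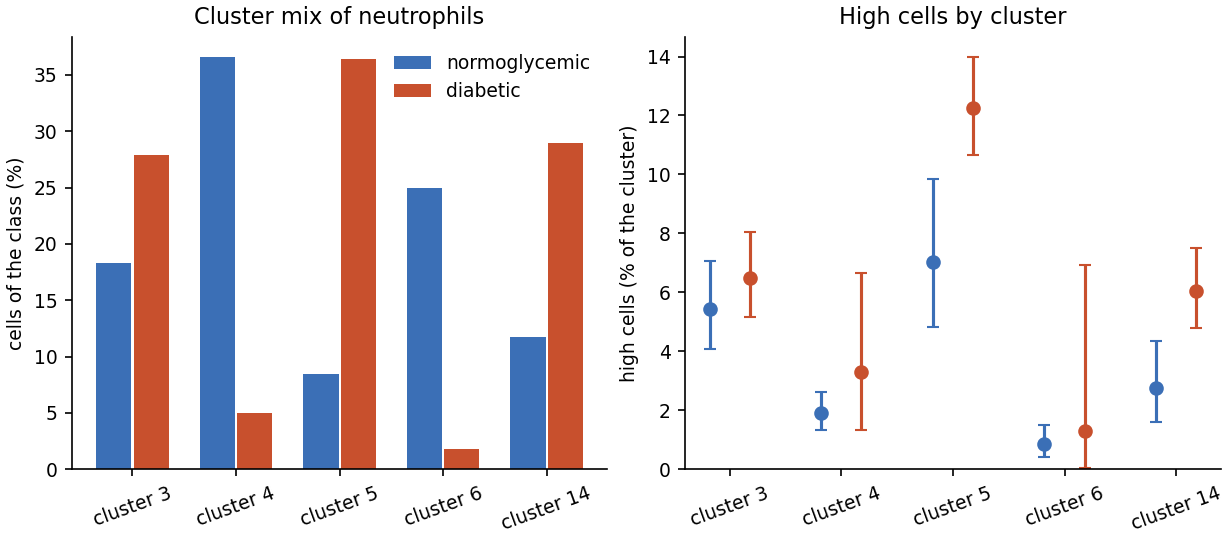
Left, share of the neutrophils of each library in each neutrophil cluster (percent). Right, share of high cells in each cluster with exact 95% intervals; cluster 5 has 7.05% high cells in the normoglycemic and 12.2% in the diabetic library.

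Monocyte clusters instead gave ratios like that of the class. Cluster 10, led by Vcan and Chil3, had 4134 and 2555 CPM (0.618), with high shares of 9.64% and 2.85%. Cluster 12, led by Ptges and Nos2, had 2480 and 1452 CPM (0.586), with high shares of 3.27% and 0.791%. At the diabetic mix of clusters the ratio of mean thinned sums was 0.576, against 0.610 at each library's own mix. In macrophages cluster 8, led by Selenop and Gas6, had a ratio of 0.767 and cluster 11, led by Cd72, of 0.851.

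Cells were also called male or female from Y-linked genes and Xist, a split that the labels do not give. In neutrophils 37 normoglycemic and 196 diabetic cells were called female, and the ratio was 0.848 (0.760 to 0.947) among them and 1.78 (1.75 to 1.81) among cells called male. Female calls in normoglycemic neutrophils were few, so the first ratio rests on 37 cells. Male calls numbered 2695 there, whereas macrophages of the same library had 437 female and 547 male calls. Whether the calls miss female neutrophils was not tested. Among the cells called female the log2 ratios of Ifi27l2a, Isg15 and Rtp4 in neutrophils were -1.38, -0.35 and -0.38, opposite to those of the class. In macrophages the ratio was 0.572 in cells called female and 0.969 in cells called male. In monocytes it was 0.707 and 0.676.

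The rest of the pathway was described from lists that do not contain the members. For these lists it was not checked which called genes passed the minimum only through 1 library, so their counts are a description. Of 40 other interferon-stimulated genes, 14 were measured in neutrophils, with 9 called higher and 1 lower, beside 18.4% and 15.4% of all genes measured. Ifitm1 and Ifitm3, membrane proteins that block viral entry, had ratios of 1.37 and 1.82, and Samhd1, which depletes nucleotides, of 1.59. In monocytes 2 of 31 were called higher and 8 lower (5.42% and 6.3% of all genes), and in macrophages 0 of 33 and 5 (2.12% and 3.58%). In conventional dendritic cells 3 of 30 were called higher and 0 lower (2.65% and 4.48%), among them Ifitm1 (735 and 1685 CPM) and Ifitm3 (994 and 1718 CPM). Over the 30 genes the log2 ratios nevertheless had a median of -0.12 in that class, and 9 were above 0. The genes induced mainly by interferon-gamma did not follow the members in neutrophils as a sum, with 703 and 407 CPM. Of this sum Cd274, the ligand of the checkpoint receptor PD-1, held 515 and 147 CPM. Of the 8 measured, 4 were called higher and 1 lower.

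Of the 20 receptor and signalling genes, 15 were measured in neutrophils, with 2 called higher and 2 lower. These shares are near those of all genes (18.4% and 15.4%). In monocytes 19 were measured with 0 higher and 1 lower, beside 5.42% and 6.3% of all genes. Socs3, a feedback inhibitor of cytokine receptors, had ratios of 0.788 and 0.856 in these classes. The receptor chains, named for their role whatever their values, had ratios of 0.918 (Ifnar1) and 0.684 (Ifnar2) in neutrophils, and of 0.959 and 0.724 in monocytes. Upstream sensing genes had 0 called higher and 4 lower of 8 in neutrophils, beside 18.4% and 15.4% of all genes. Among them Myd88 was at 92.2 and 83.1 CPM and Tbk1, the kinase that activates IRF3, at 82.4 and 52.2 CPM. Among the ligands, Ifnb1 had 50 UMIs in 22 of 10948 normoglycemic cells (0.201%, 0.126 to 0.304%) and 125 UMIs in 39 of 10260 diabetic cells (0.380%, 0.270 to 0.519%), with overlapping intervals. Of these UMIs 7 and 50 were in monocytes, 7 and 43 in conventional dendritic cells, 35 and 24 in macrophages, and 1 and 0 in neutrophils. The 13 interferon-alpha genes had 0 UMIs in both libraries, which allows up to 0.0274% and 0.0292% of cells with a UMI. Ifnk had 57 and 38 UMIs and Ifnab and Ifnl2 1 and 0 each, and Ifng, the type II interferon, had 491 and 391 UMIs, of which 445 and 355 were in the T or NK class.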

How the data were processed

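Both files of UMI counts per gene and cell were deposited by the authors, made with Cell Ranger. Its version is 4.0.0 per the file headers, whereas the submitters' processing notes list 6.0.2 and the build mm10; the annotation is not given in the sources used here. The 4 antibody features were left out. Cells with at least 500 UMIs, 200 genes and at most 15% mitochondrial UMIs were kept (332 and 236 barcodes removed). Scrublet called 0 and 0 doublets where 8.76% and 8.21% were expected, so it had not worked, and an alternative removed the 959 and 842 highest scores. Cells were clustered with scanpy 1.11.5 (Leiden resolution 1, interferon genes left out), and clusters were named from markers. Clusters 9, 13 and 18 stayed unnamed.

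Levels are UMIs per 1e+06 UMIs of the class (CPM). Ratios carry exact binomial 95% intervals, and log2 ratios a pseudocount of 0.5. UMI intervals cover counting error only. The genes named in a class are measured members (10 CPM) with at least 50 UMIs and an interval wholly beyond 1.5-fold, up to 6 per direction ranked by the bound nearer to 1, and in neutrophils any measured member; of other lists the 3 genes of highest level and any ligand with a UMI. Promoters shown follow UMI totals. The members, lists and rules were chosen with earlier results of these data known. edgeR 4.0.16 and DESeq2 1.42.0 served for scaling only, since 1 library per group allows no test. Scripts were tested on simulated data. A member stands as called, with no test, past 1.5-fold. Alternatives changed the cell filter, doublets, clustering, class definition, scaling, high cut, thinning, level filter, pseudocount and called sex.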

Additional observations from a re-analysis of the deposited data

Results flagged for a closer look

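The members' summed level differed in direction between classes. In neutrophils the ratio of the diabetic over the normoglycemic library was 1.69, whereas it was 0.656 in monocytes, 0.787 in macrophages, 0.945 in conventional dendritic cells, 0.621 in the T or NK class, 0.653 in gamma-delta or type 17 T cells and 0.736 in B cells. Within neutrophils it was 0.848 in cells called female, of which only 37 were normoglycemic, and 1.78 in cells called male. Within conventional dendritic cells it was 1.08 and 0.900. None of these differences between classes or called sexes was tested, since each group is 1 library.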

How the results depend on the processing

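No paired analysis was possible because each group is 1 library and the replicate number is only a name. Values below are log2 ratios of the summed level, differences in the share of high cells in points, and numbers of members past 1.5-fold. Female calls in normoglycemic neutrophils are few, low-level genes rest on few UMIs, and intervals do not cover differences between mice. The cause of the shifts was not tested.

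In neutrophils the summed level (0.75) kept its direction in 14 of 15 alternatives. It was 0.72 with cells gated one by one, 0.63 under TMM and 0.63 under DESeq2 scaling, 0.81 as the mean of each cell's share, 0.61 without the member with the most UMIs, 0.83 in cells called male and -0.24 in cells called female. The difference in high cells (5.39) was 6.44 in cells called male, -0.139 in cells called female, 12.9 with a cut of 5 and 1.37 with a cut of 20. Without the level filter 23 members were higher and 2 lower. In cells called female Ifi27l2a was at -1.38, Isg15 at -0.35 and Rtp4 at -0.38 in neutrophils, Oasl1 at 1.65 in monocytes, Ifit1 at 0.15 and Ifit3 at 0.85 in the T or NK class and Ifi202b at 0.21 in gamma-delta or type 17 T cells.

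In monocytes the summed level (-0.61) kept its direction in 14 of 14 alternatives. It was -0.57 with the stricter cell filter, -0.73 with the highest doublet scores removed, -0.64 with interferon genes kept for clustering, -0.72 with libraries clustered separately, -0.65 at resolution 2, -0.79 gated, -0.64 under TMM, -0.66 under DESeq2 scaling, -0.69 as the mean share, -0.79 without the top member, -0.57 in cells called male and -0.50 in cells called female. The difference in high cells (-4.43) was -2.21 in cells called female, -9.52 with a cut of 5 and -1.68 with a cut of 20.

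In macrophages the summed level (-0.35) was -0.42 with the stricter filter, -0.30 with doublet scores removed, -0.17 clustered separately, -0.23 gated, -0.28 as the mean share, -0.38 without the top member, -0.045 in cells called male and -0.81 in cells called female. The difference in high cells (-0.574) had no stable direction and kept its sign in 8 of 13 alternatives, with a highest value of 0.203. It was -1.68 in cells called female and -4.44 with a cut of 5. Gating gave 1 member higher, and 8 were lower with the stricter filter and 7 with interferon genes kept.

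Conventional dendritic cells had no stable direction. The summed level (-0.08) was -0.30 with the stricter filter, -0.16 with doublet scores removed, 0.0062 with interferon genes kept, 0.21 clustered separately, -0.052 at resolution 2, -0.14 gated, -0.044 as the mean share, -0.14 without the top member, -0.15 in cells called male and 0.12 in cells called female. The difference in high cells was -3.24 with the stricter filter, -3.20 with doublet scores removed, 1.56 in cells called female and 1.53 with a cut of 5. Members higher and lower numbered 0 and 10 with the stricter filter, 7 and 11 clustered separately and 2 and 1 gated, and 9 were lower with doublet scores removed, 1 with interferon genes kept and 10 without the level filter. The summed level ranged from -1.09 to -0.39 in the T or NK class (-0.69) and from -0.81 to -0.24 in gamma-delta or type 17 T cells (-0.61), lower in 14 of 14 alternatives each. In B cells (-0.44) it was -0.083 under TMM, -0.081 under DESeq2 scaling, 0.028 gated and 0.011 as the mean share, and Slfn4 was at 0.15 with doublet scores removed.

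Further alternatives were chosen after seeing the data. With normoglycemic clusters weighted to the diabetic mix the log2 ratio of mean thinned sums was 0.28 in neutrophils, -0.80 in monocytes, -0.27 in macrophages 0.0022 in conventional dendritic cells, -0.39 in the T or NK class, -0.81 in gamma-delta or type 17 T cells and -0.11 in B cells, and the difference in high neutrophils was 3.22. Without Ifi202b the monocyte level was -0.49. Without the high cells 2 monocyte members were higher and 5 lower, and 1 macrophage member was higher. In conventional dendritic cells 2 were then higher and 0 lower. No share over all genes was computed in the remaining cells. Among the higher members, Ifit1 was under 10 CPM in both libraries in the remaining monocytes and macrophages.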

Other observations

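Some classes had too few cells for the comparisons above, and their values were chosen for mention after they were seen. In mature dendritic cells, antigen-loaded cells that migrate to lymph nodes, the summed level of the members had a ratio of 0.422 (0.403 to 0.443) over 90 normoglycemic and 101 diabetic cells. Langerhans cells, the dendritic cells of epithelia, had 904 CPM in 55 cells and 757 CPM in 13 cells. Type 2 innate lymphoid cells had 1075 CPM in 125 cells and 859 CPM in 40 cells. Among cells outside the leukocytes, fibroblasts had 778 CPM in 24 normoglycemic and 1149 CPM in 281 diabetic cells, and mural or muscle cells had 743 CPM in 6 and 695 CPM in 277 cells.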
